A study of Mus musculus with 2 samples.

Results

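The 45 genes described here copy DNA and supply its building blocks: they load and drive the replicative helicase, synthesise and join the new strands, make deoxynucleotides and restore chromatin behind the fork. They were chosen by name, with earlier results of these data known, and all 45 were among the 27179 features of the deposited matrices. Mammary glands of adult females at 18.5 days of pregnancy were dissociated, and cells negative for Ter119, CD31 and CD45 (markers of red cells, endothelium and leukocytes) were sorted for droplet sequencing with the 10x Chromium 3' V3 kit. There was 1 library of strain EhfKO, from females with Ehf deleted, and 1 library of wild type (WT) females, each from the pooled glands of 2 females. Ehf, a member of the ETS family of transcription factors, is found in epithelia, and the series asked what its deletion does to the epithelium at late pregnancy. The labels do not say whether Ehf was deleted in every tissue or in the mammary epithelium alone, and give no genetic background beyond EhfKO.

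In a dividing cell, the origin recognition complex with Cdc6 and Cdt1 places the Mcm2 to Mcm7 ring on DNA, and Cdc45 and the GINS complex turn that ring into the moving helicase. Most of these genes are transcribed together as cells pass from G1 into S phase, under control of the E2F factors. In the mammary gland, alveolar (luminal secretory) cells multiply through pregnancy and then turn to milk synthesis, while basal myoepithelial cells surround them and hormone-sensing luminal cells carry the oestrogen and progesterone receptors.

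Since E2F control is the textbook feature of this family, promoter windows of 300 bases (250 before to 50 after the start, RefSeq, GRCm38.p6) were searched on both strands for TTTCCCGC, TTTCGCGC, TTTGCCGC and TTTGGCGC, forms of the E2F site. Of the 45 genes 38 had a window in the table, and 16 of the 38 (42.1%) held at least 1 match, against 2.60% of all 27025 genes in the table and 5.09% of the 8692 genes that had at least 50 UMIs in luminal secretory cells. Overlapping matches were counted separately. The windows below are those of Mcm7 (the first of 2 starts listed) and Mcm3, which had the largest ratios between libraries, of Mcm5, which was higher in the knockout library in luminal and in basal cells, and of Fen1, the only 1 of the genes whose luminal ratio was below 0 on the scale used here. Capitals mark the matches. The Fen1 windows, for the 2 starts listed, held none, nor did the window of the second Mcm7 start, which is not printed. Mcm2 and Mcm10 were also higher in luminal and in basal cells, and Cdc45 had the next largest luminal ratio after Mcm3. The windows of Mcm2, Mcm10 and Cdc45 held no match either and are not printed.
Mcm7, chr5:138171834-138172133, minus strand: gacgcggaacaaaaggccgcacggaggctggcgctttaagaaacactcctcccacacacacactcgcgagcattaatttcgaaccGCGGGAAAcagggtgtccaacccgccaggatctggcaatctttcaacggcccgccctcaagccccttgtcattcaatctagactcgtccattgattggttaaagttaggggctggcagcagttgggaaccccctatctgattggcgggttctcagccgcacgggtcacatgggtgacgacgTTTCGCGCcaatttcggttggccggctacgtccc
Mcm3, chr1:20820263-20820562, minus strand: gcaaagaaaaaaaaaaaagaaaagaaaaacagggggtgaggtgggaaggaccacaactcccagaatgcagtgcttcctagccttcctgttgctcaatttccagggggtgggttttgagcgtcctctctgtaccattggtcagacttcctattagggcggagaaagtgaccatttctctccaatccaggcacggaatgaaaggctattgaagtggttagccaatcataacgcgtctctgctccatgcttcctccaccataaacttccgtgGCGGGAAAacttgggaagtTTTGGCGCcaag
Mcm5, chr8:75109259-75109558, plus strand: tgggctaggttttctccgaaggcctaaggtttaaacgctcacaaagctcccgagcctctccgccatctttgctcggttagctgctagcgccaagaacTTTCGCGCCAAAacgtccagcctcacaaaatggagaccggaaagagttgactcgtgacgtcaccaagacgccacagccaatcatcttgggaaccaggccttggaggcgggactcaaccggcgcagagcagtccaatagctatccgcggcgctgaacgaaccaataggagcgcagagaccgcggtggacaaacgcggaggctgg
Fen1, chr19:10204344-10204643, minus strand: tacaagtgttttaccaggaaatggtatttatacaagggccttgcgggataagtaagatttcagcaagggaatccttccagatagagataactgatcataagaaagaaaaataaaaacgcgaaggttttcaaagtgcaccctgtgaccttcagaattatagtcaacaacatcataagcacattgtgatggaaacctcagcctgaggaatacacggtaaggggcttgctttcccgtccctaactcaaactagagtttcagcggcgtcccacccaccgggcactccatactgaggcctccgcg
Fen1, chr19:10203872-10204171, minus strand: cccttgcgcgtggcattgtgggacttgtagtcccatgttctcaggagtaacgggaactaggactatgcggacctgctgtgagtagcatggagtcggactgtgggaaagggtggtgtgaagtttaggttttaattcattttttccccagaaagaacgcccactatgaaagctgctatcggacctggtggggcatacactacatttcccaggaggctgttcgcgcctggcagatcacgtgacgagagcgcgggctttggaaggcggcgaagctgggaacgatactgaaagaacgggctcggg

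The Mcm3 window held a pair of separate matches close to the start, and the Mcm5 window held a pair that overlap on opposite strands. A match describes these letters only and shows no binding of a factor.

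The knockout library held 7275 barcodes and 40066795 UMIs (unique molecular identifiers, 1 per captured transcript), and the wild type library 11258 barcodes and 48720938 UMIs. After filtering, 6561 knockout and 9086 wild type cells were kept, with medians of 3900 and 2480 UMIs, and 15 barcodes occurred among the kept cells of both libraries. Clusters named from marker genes gave 3 epithelial classes: luminal secretory cells (823 knockout, 2548 wild type), basal cells (5525 and 6222) and hormone-sensing cells (151 and 134). The replication genes were kept out of the clustering. Summed basal markers were at 30507 in knockout and 40698 in wild type basal cells, and hormone-sensing markers at 8260 and 4224 in hormone-sensing cells, against at most 1387 and 183 in the other 2 classes. Luminal markers outside milk proteins were at 7538 in knockout and 7676 in wild type luminal secretory cells, at 7518 and 6034 in hormone-sensing cells and at 1207 and 1607 in basal cells, so as a sum they do not separate the luminal classes. Levels are UMIs per 1000000 UMIs outside 12 milk protein genes, since those genes took 10.3% of all UMIs in knockout luminal secretory cells and 38.9% in wild type ones. Ratios are given as log2, knockout over wild type. Because each genotype was 1 library, differences could not be tested, and the 95% intervals cover counting error only, not the spread between animals. Ehf itself was at 89.9 in knockout and 186 in wild type luminal secretory cells, a log2 ratio of -1.05, so its 3' reads were lower but present. The labels do not state which part of Ehf was deleted, and 3' reads outside it would check nothing.

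In luminal secretory cells the replication genes were higher in the knockout library nearly throughout. Their summed level was 1992 (1967 to 2018, 23855 UMIs) in knockout and 749 (736 to 762, 13223 UMIs) in wild type cells, a 2.66-fold difference and a log2 ratio of 1.41 (1.38 to 1.44). By a rule of size alone, a gene counted as higher or lower if the libraries differed at least 1.5-fold and it had at least 50 UMIs over both. Of the 43 genes that had them, 42 were higher, 0 were lower and 1 (Fen1) was within 1.5-fold. Over all genes measured that deeply, 31.0% were higher and 10.7% lower by the same rule. The median ratio of the 43 genes was 1.60, against 0.31 over all genes tested. The 2 genes with too few UMIs, Orc1 and Gins3, had 23 and 21 UMIs in knockout cells, against 11 and 21 in wild type cells. When the median of all genes was set to 0 instead, 35 of the 43 were higher (background 15.5%), 1 was lower, Fen1 (background 18.3%), and 7 were within 1.5-fold: Gins4, Pole, Rpa1, Pcna, Rfc1, Rrm2 and Slbp.

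**Figure D1:**
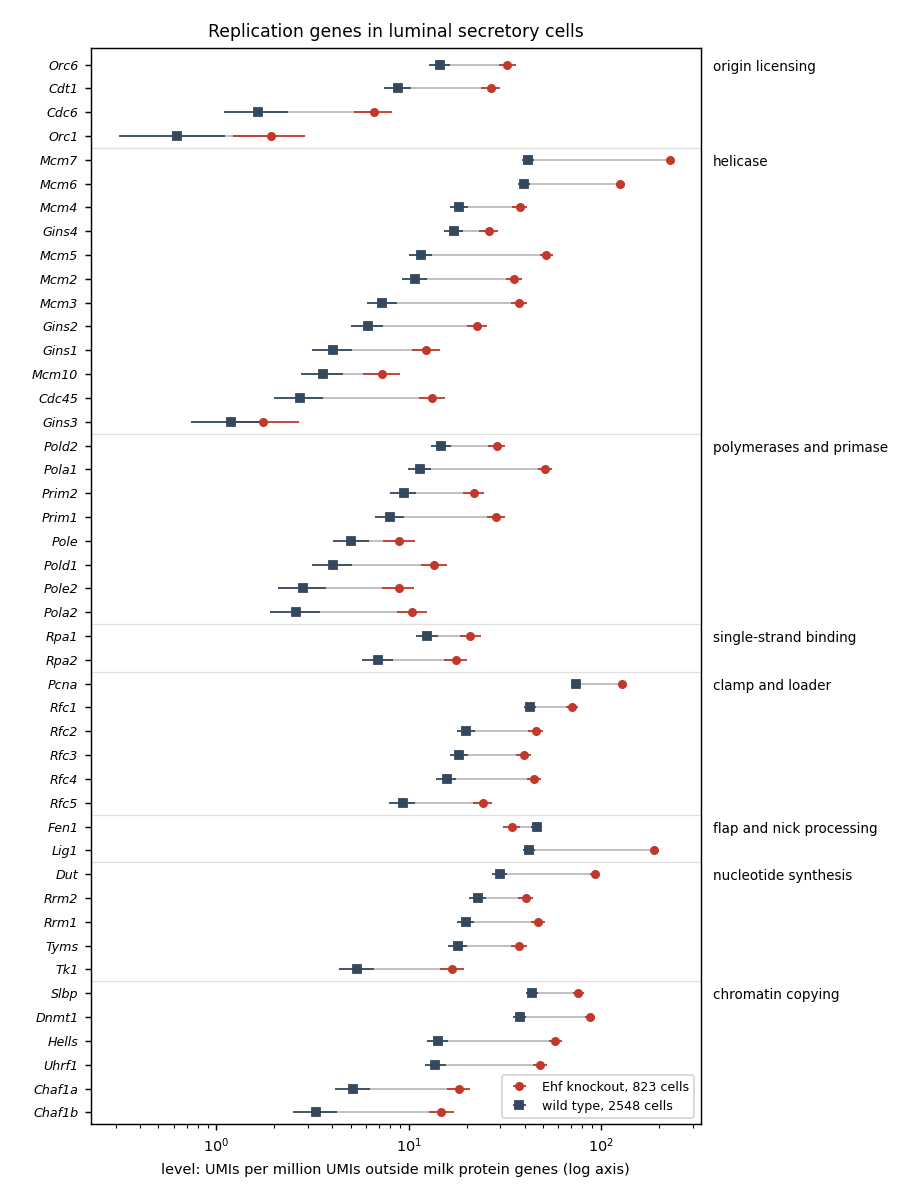
Level of each of the 45 replication genes (UMIs per 1000000 UMIs outside milk protein genes, log axis) in knockout (circles) and wild type (squares) luminal secretory cells, grouped by role, with 95% Poisson intervals for 1 library each. The knockout circle lies to the right of the wild type square for 44 of the 45 genes, and to the left for Fen1, whose ratio of -0.43 on this scale was 0.12 over all UMIs.

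Among the licensing genes, Orc6, a subunit of the origin recognition complex, was at 32.6 in knockout and 14.6 in wild type luminal secretory cells (390 and 257 UMIs), a log2 ratio of 1.16. The loading factors Cdt1 and Cdc6 had larger ratios, 1.60 and 2.01. Together the 4 licensing genes had a summed ratio of 1.40.

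The helicase genes differed most of the 8 role groups, with a summed level of 600 in knockout and 164 in wild type cells and a log2 ratio of 1.87 (1.81 to 1.93). Mcm7, a subunit of the Mcm2 to Mcm7 ring, was at 228 in knockout and 41.8 in wild type cells (2727 and 738 UMIs), the highest ratio of the 43 genes at 2.45 (2.33 to 2.57). Mcm3, another subunit of the ring, was at 37.6 in knockout and 7.30 in wild type cells (450 and 129 UMIs), a ratio of 2.36. The ring subunits differed among themselves, with ratios from 1.04 for Mcm4 to 2.45 for Mcm7, with Mcm6 at 1.66, Mcm2 at 1.72 and Mcm5 at 2.17. Of the factors that activate the ring, Cdc45 was at 13.3 in knockout and 2.72 in wild type cells (159 and 48 UMIs), a ratio of 2.29. The GINS subunits spread widely: Gins2 had a ratio of 1.89 and Gins1 of 1.62, while Gins4, at 26.1 in knockout and 17.1 in wild type cells (312 and 302 UMIs), had a ratio of 0.61. Mcm10, which helps activate the helicase, had a ratio of 1.03. Exons of Mcm7 overlap those of Ap4m1 and Cops6 on the opposite strand (GRCm38, GENCODE vM21), and exons of 12 of the 45 genes overlap a protein-coding gene. No source used here states whether the authors' counting used strand, so reads in those overlaps cannot be told apart.

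All 8 polymerase and primase genes were higher in knockout luminal secretory cells, with a summed ratio of 1.57. Pola1, the catalytic subunit of the polymerase that starts each new strand, was at 51.1 in knockout and 11.4 in wild type cells (612 and 201 UMIs), a ratio of 2.17 (1.93 to 2.40). Its partner Pola2 had a ratio of 2.00, and the primase subunits Prim1 and Prim2, which make the RNA primers, had 1.84 and 1.21. Between the main strand polymerases, the delta subunit Pold1 had 1.76 and Pold2 0.96, and the epsilon subunits Pole2 and Pole had 1.64 and 0.83.

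The single-strand binding genes and the clamp with its loader had the smallest summed ratios of the 8 groups, 0.99 and 0.97. The single-strand binding subunit Rpa1 was at 20.9 in knockout and 12.5 in wild type cells (250 and 220 UMIs), a ratio of 0.75, and Rpa2 had 1.34. Pcna, the sliding clamp that tethers the polymerases, was at 128 in knockout and 73.8 in wild type cells (1536 and 1304 UMIs), a ratio of 0.80 (0.69 to 0.90). Rfc1, the large subunit of the clamp loader, was at 70.7 in knockout and 42.7 in wild type cells (846 and 754 UMIs), a ratio of 0.73, while Rfc2 to Rfc5 lay between 1.11 and 1.51.

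Lig1 and Fen1, which act in turn on the lagging strand, differed most within a group. Lig1, the ligase that seals the nicks, was at 189 in knockout and 42.1 in wild type luminal secretory cells (2258 and 744 UMIs), a ratio of 2.16 (2.04 to 2.28). Fen1, the nuclease that removes the RNA-primed flaps, was at 34.3 in knockout and 46.3 in wild type cells (411 and 817 UMIs), a ratio of -0.43 (-0.60 to -0.26) that was 0.12 over all UMIs and -0.74 with the median of all genes set to 0. Its direction thus depends on the scale, unlike that of the other 42 genes counted. Fen1 lies at chr19:10199132-10204169 on the minus strand, and its exons overlap Tmem258 on the other strand, a subunit of the complex that glycosylates secreted proteins. Tmem258 was at 277 in knockout and 410 in wild type luminal secretory cells, a ratio of -0.57. How far Tmem258 reads enter the Fen1 count was not tested.

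All 5 nucleotide synthesis genes were higher. Dut, which clears dUTP so that uracil is not built into DNA, was at 93.3 in knockout and 29.7 in wild type cells (1117 and 525 UMIs), a ratio of 1.65. Tk1, which salvages thymidine, had 1.65 and Tyms, which makes thymidylate, 1.05. The ribonucleotide reductase subunits Rrm1 and Rrm2 had 1.26 and 0.82.

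All 6 genes that copy chromatin were higher as well, led by Chaf1b at 2.17 and Chaf1a at 1.82, subunits of the histone chaperone CAF-1, and by the remodeller Hells at 2.03. Uhrf1, which recognises hemimethylated DNA at the fork, had a ratio of 1.81 and Dnmt1, the methyltransferase it recruits, 1.22. Slbp, which binds the stem loop of histone mRNAs, was at 76.2 in knockout and 43.5 in wild type cells (912 and 769 UMIs), a ratio of 0.81. The 16 genes with an E2F-type match had a median luminal ratio of 1.78 and the 22 without one 1.30, a description that carries no test.

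**Figure D2:**
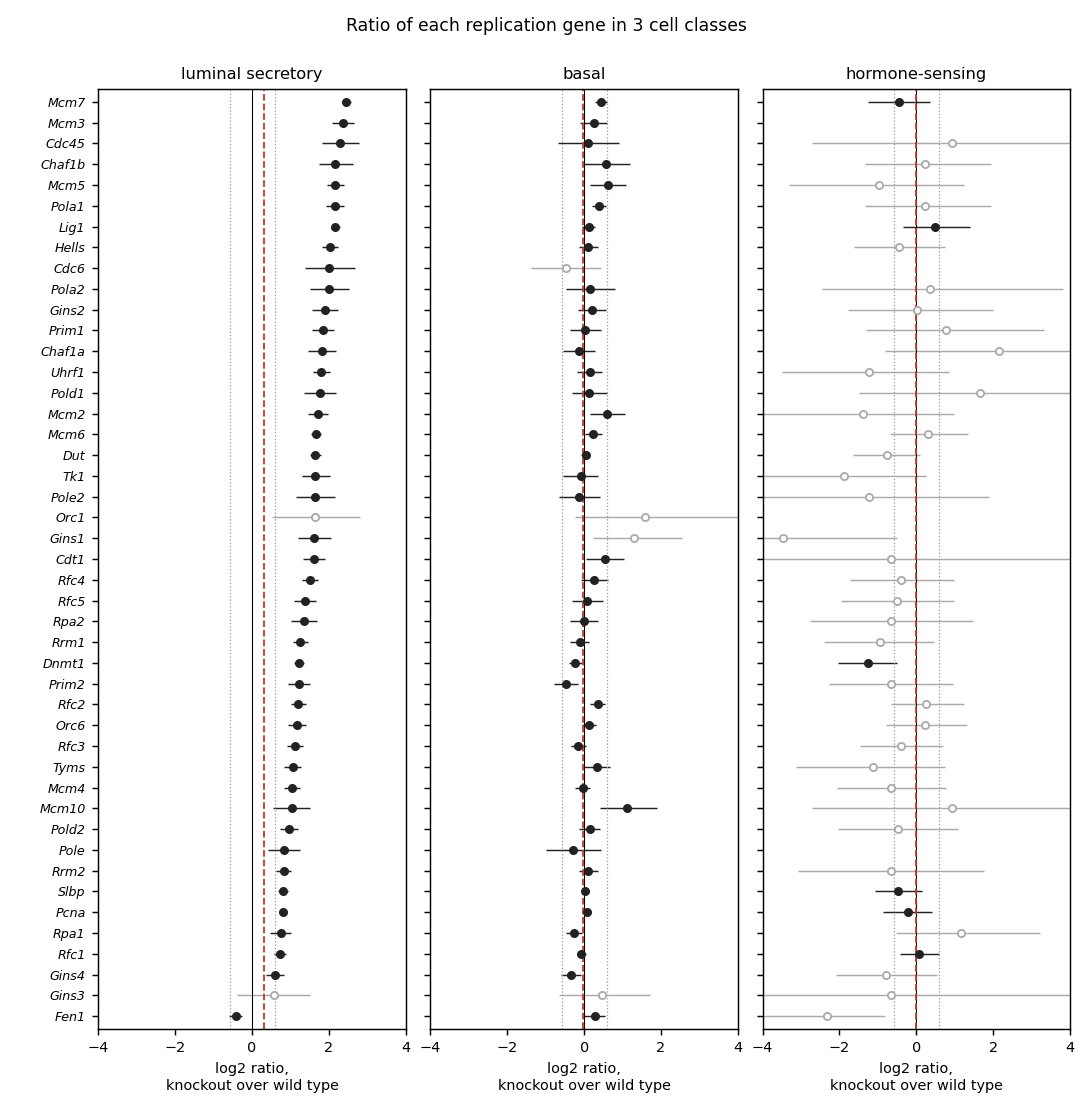
Log2 ratio (knockout over wild type) of each replication gene in 3 cell classes, with 95% counting intervals cut at the axis limits. Filled points had at least 50 UMIs over both libraries and open points fewer, genes without UMIs in wild type cells have no point, dotted lines mark 1.5-fold and the dashed line is the median over all genes; the points lie right of 0 in luminal secretory cells except for Fen1 (0.12 over all UMIs), and around 0 in basal cells.

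Basal cells showed no such difference. The summed level was 808 (797 to 819, 19599 UMIs) in knockout and 766 (752 to 780, 11153 UMIs) in wild type basal cells, a log2 ratio of 0.08 (0.04 to 0.11). Of 41 genes with at least 50 UMIs, 3 were higher (background 5.69%), 0 were lower (background 7.39%) and 38 were within 1.5-fold. The 3 were all helicase genes. Mcm10 was at 3.13 in knockout and 1.44 in wild type basal cells (76 and 21 UMIs), a ratio of 1.12 (0.41 to 1.89). Mcm5 was at 5.90 and Mcm2 at 6.10 in knockout cells, against 3.85 and 4.05 in wild type cells, ratios of 0.62 and 0.59, close to the 1.5-fold limit. With a stricter filter on cells (at least 1000 genes and at most 10% mitochondrial UMIs), the summed ratio was -0.04, 1 gene (Mcm10) was higher and 1 (Pole) was lower.

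At the other end, Prim2 was at 8.04 in knockout and 11.2 in wild type basal cells (195 and 163 UMIs), a ratio of -0.48. Gins4 had a ratio of -0.34, at 11.9 in knockout and 15 in wild type cells, and Pole of -0.29 with 41 and 30 UMIs. Fen1 was at 13.9 in knockout and 11.5 in wild type basal cells, a ratio of 0.27 (0.00 to 0.55), and Mcm7 had a ratio of 0.44. The mitosis genes, 23 genes of chromosome segregation, were lower in knockout basal cells, at a summed level of 376 against 504 in wild type, a ratio of -0.42.

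In the knockout library, 44 of the 45 genes were at a higher level in luminal secretory than in basal cells, with a median log2 ratio of 1.64 between the classes. In the wild type library this held for 30 of 45, with a median of 0.19. The same count was not made over all genes, so both counts are a description only. The summed level in luminal secretory and in basal cells was 1992 and 808 in the knockout library, against 749 and 766 in the wild type library.

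Hormone-sensing cells were few, and the genes were measured thinly there. Their summed level was 508 (616 UMIs) in knockout and 623 (480 UMIs) in wild type cells, a log2 ratio of -0.30 (-0.47 to -0.12). Only 6 of the 45 genes had at least 50 UMIs: 0 were higher (background 9.60%) and 1, Dnmt1, was lower (background 13.0%). Dnmt1 was at 20.6 in knockout and 49.3 in wild type hormone-sensing cells (25 and 38 UMIs), a ratio of -1.26 (-2.05 to -0.49). The other 5 had intervals that include 0: Lig1 at 0.50, Rfc1 at 0.07, Pcna at -0.23, Mcm7 at -0.46 and Slbp at -0.47. Cdc6 had 0 UMIs in these cells of both libraries. Of the replication gene UMIs in cells of this class with at least 2000 UMIs outside milk genes, 2 knockout cells held 16.7% and 5 wild type cells 29.2%. The mitosis genes had 149 UMIs in knockout and 363 in wild type hormone-sensing cells, and basal markers were at 740 and 1387. Milk protein genes took 0.26% of UMIs in the knockout cells of this class and 11.7% in the wild type ones. Without the 15 wild type cells whose casein share was 5% or more, the ratio was -0.36 (-0.55 to -0.16). The part of these marker differences in the result was not tested further.

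Single cells were compared after each was thinned to 2000 UMIs outside the milk protein genes, and a cell with at least 5 UMIs of the 45 genes is called rich below. Among luminal secretory cells, 30.3% of the 792 in the knockout library were rich (27.1 to 33.6%), against 7.05% of the 2341 in the wild type library (6.04 to 8.16%), after 31 and 207 shallower cells were left out. Without thinning the shares were 70.4 and 28.9%, at median depths of 9469 and 5365 UMIs outside milk genes. The border at 5 UMIs cuts a continuous range, with 61 knockout and 60 wild type cells at exactly 5 UMIs and 67 and 75 at 4. Cells at 0 UMIs made up 16.9% in the knockout library, against 41.2% in wild type. Among cells under 5 UMIs the summed level was also higher in the knockout library, at 1306 against 596 in wild type. Those cells were set apart by UMIs of the same genes, so this is no separate result. Their median casein share was 4.66% in knockout and 26.8% in wild type.

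**Figure D3:**
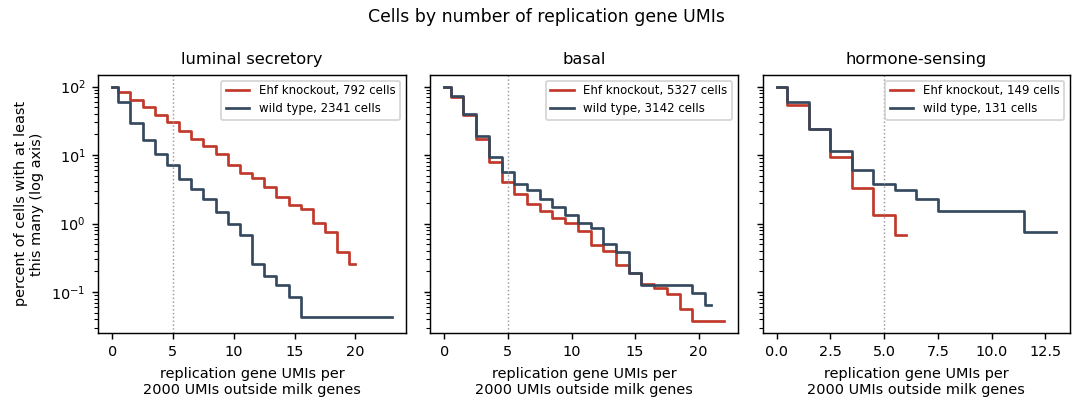
Percent of cells (log axis) with at least the given number of replication gene UMIs after thinning to 2000 UMIs outside milk protein genes, in knockout and wild type cells of 3 classes; the dotted line marks 5 UMIs. The curves separate in luminal secretory cells, with 30.3% of knockout and 7.05% of wild type cells at 5 UMIs or more, and run close together in basal cells.

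In basal cells 4.00% of 5327 knockout cells and 5.70% of 3142 wild type cells were rich. That order goes against the summed levels, and thinning to 1000 UMIs turned it (1.23% and 1.06%), so no order is read from it. The thinning left out 198 knockout and 3080 wild type basal cells. In hormone-sensing cells 2 of 149 knockout cells and 5 of 131 wild type cells were rich, and the exact intervals, 0.16 to 4.76% and 1.25 to 8.68%, overlap.

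Rich luminal secretory cells held 59.2% of the replication gene UMIs of the thinned cells of this class in the knockout library (240 cells) and 26.3% in the wild type library (165 cells). They also carried mitosis genes, at a summed level of 2168 in knockout and 1659 in wild type rich cells, against 1292 in knockout and 568 in wild type cells under 5 UMIs. Each gene was then set against the other 44: cells were sorted by the UMIs of those 44, and the level of the gene left out was compared between rich cells and the rest. All 45 genes were higher in the cells rich in the others, in both libraries, with a median log2 ratio of 1.15 in knockout and 2.11 in wild type cells. No such count was made over all genes, so how far it is particular to these 45 was not tested. Cells rich in all 45 were also deeper before thinning. Their median was 12296 UMIs outside milk genes in knockout and 6691 in wild type, against 8673.5 and 5565.5 in the rest. Fen1 was among the 45, at 46.7 in rich and 27.8 in other knockout cells, and at 62.8 in rich and 45.1 in other wild type cells.

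The luminal secretory cells of the libraries did not occupy the same clusters. Of the knockout cells, 55.3% lay in a cluster led by Igkc, Plb1 and Gjb2, 21.9% in one led by histone genes, Pclaf and Birc5, and 20.3% in one with the progenitor markers Kit and Aldh1a3 among its leading genes. Of the wild type cells, 55.5% lay in a cluster led by Cidea, Spp1 and Wap, which held only 21 knockout cells, and 34.3%, 7.73% and 2.43% in the other three. Within those 3 shared clusters the summed ratio was 0.84, 0.65 and 0.68, and in the Wap-led cluster it was -0.27 (-0.58 to 0.03). The cluster led by histone genes held cells with a median of 5.65 times the UMIs of their own library's median cell. Basal markers were at 999 in knockout and 688 in wild type luminal secretory cells. With the 38 knockout cells above the wild type doublet threshold left out, the luminal ratio was 1.42.

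Caseins are the main milk proteins and are switched on as alveolar cells turn to milk synthesis, so cells were grouped by the share of all their UMIs that came from the 5 casein genes. Most knockout cells were low, with 313 below 2%, 148 at 2 to 5%, 162 at 5 to 10%, 141 at 10 to 20% and 59 above 20%. Wild type cells were mostly high, with 66, 47, 86, 367 and 1982 cells in the same groups. A group was compared where both libraries had at least 50 cells, which leaves out 2 to 5%. In basal cells, milk protein genes took 0.21% of UMIs in the knockout library and 1.63% in wild type. How much of this came from luminal cells was not tested.

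In both libraries the summed level was lowest in the casein-richest cells. Knockout cells were at 2186, 2264, 2025, 1731 and 906 from the lowest to the highest casein share. Wild type cells were at 1244, 1229, 1483, 918 and 683. At every compared casein share the knockout level was higher, by less than over the whole class: the log2 ratio was 0.81 (0.67 to 0.97) below 2%, 0.45 (0.34 to 0.56) at 5 to 10%, 0.92 (0.84 to 0.99) at 10 to 20% and 0.41 (0.29 to 0.52) above 20%. When the wild type groups were weighted by the knockout UMIs in each, the wild type level became 1197 against 1992 in knockout, a 1.66-fold difference and a log2 ratio of 0.74. That is 52.1% of the log2 ratio of 1.41 over the whole class. The weighting used all 5 groups, also the 2 to 5% group that was not compared. Its wild type levels rest on 66 cells with 384 replication gene UMIs below 2%, and on 47 cells with 218 at 2 to 5%. No interval was computed for the weighted ratio, and this weighting was chosen after the data were seen.

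**Figure D4:**
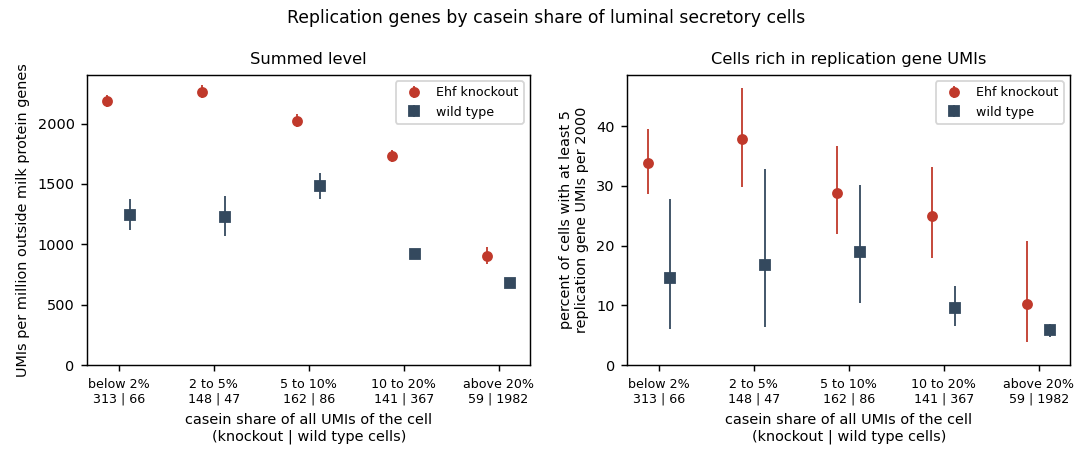
Summed level of the 45 replication genes (left) and percent of cells with at least 5 of their UMIs per 2000 (right) in knockout and wild type luminal secretory cells by casein share, with 95% counting intervals; cell numbers stand under each group as knockout and wild type. Knockout points lie above wild type points in every group, and both are lowest above 20%.

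The share of rich cells was also lowest above 20%. It was 33.9, 37.9, 28.8, 25.0 and 10.2% in knockout cells from the lowest to the highest casein share, and 14.6, 16.7, 18.8, 9.57 and 5.79% in wild type cells. The intervals overlap between libraries at 5 to 10% and above 20%, and not below 2% or at 10 to 20%. At the extremes few cells stand behind a value: 48 thinned wild type cells below 2% and 59 knockout cells above 20%.

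By gene, the best measured group was 10 to 20% casein, where every gene counted had at least 38 UMIs in knockout and 11 in wild type cells. There 27 of the 34 genes that reached 50 UMIs were higher in knockout cells (background 11.3%) and 0 lower (9.94%). The median over the 34 was 84 UMIs in knockout and 39.5 in wild type cells, so many passed through the knockout cells. Genes with at least 50 wild type UMIs were split between higher and within 1.5-fold: Mcm6, Mcm7 and Lig1 were among those higher, and Pcna, Rfc1 and Dnmt1 among those within 1.5-fold. The count of 27 is thus a description only. Above 20%, 12 of 38 were higher (16.1%) and 0 lower (14.4%), with under 10 knockout UMIs behind 15 of the 38. At the low casein shares genes reached 50 UMIs even more through the knockout cells, so those counts too are a description only and nothing is read from them. At 5 to 10%, 13 of 34 were higher (16.2%) and 0 lower (11.4%), with under 10 wild type UMIs behind 8 of the 34. Below 2%, 20 of 36 were higher (24.4%) and 0 lower (12.8%), but 22 of the 36, and 15 of the 20, had under 10 wild type UMIs, with a median of 6 over the 36. Pold1 had 0 UMIs in knockout and 51 in wild type cells above 20%, and a floor of 3 counts for the zero gives no difference. Mcm5 had a ratio of 1.57 (1.03 to 2.15) at 10 to 20% casein and of 0.65 (-0.34 to 1.49) above 20%, where it had 12 knockout UMIs. Dnmt1, Mcm4, Pcna, Rfc1, Rfc3 and Slbp were within 1.5-fold in all 4 compared groups.

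Mcm7 was at 269, 267, 219, 188 and 71.0 in knockout cells from the lowest to the highest casein share, and at 107, 95.8, 149, 63.4 and 33.0 in wild type cells. Lig1 was at 251, 213, 171, 136 and 76.3 in knockout cells, and at 155, 90.2, 120, 52.5 and 35 in wild type cells. Both genes were thus higher in knockout cells at each casein share and lowest in the casein-richest cells of each library. Pcna moved less, at 144, 131, 128, 116 and 92.1 in knockout cells, and at 100, 135, 99.8, 82.3 and 70.4 in wild type cells.

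Fen1 behaved differently from these. It was at 26.6, 31.6, 43.5, 36.5 and 34.2 in knockout cells, and at 25.9, 11.3, 28.5, 31.7 and 49.8 in wild type cells. Its highest wild type level stood in the casein-richest cells, which hold 726 of its 817 UMIs there. The Fen1 ratio was 0.04, 0.61 and 0.20 at the compared casein shares up to 20%, and -0.54 (-1.17 to 0.02) above it. Each of these intervals includes 0, but the groups hold fewer UMIs than the class, with 26 knockout UMIs above 20%. What part casein share has in the Fen1 ratio of the class was not tested.

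**Figure D5:**
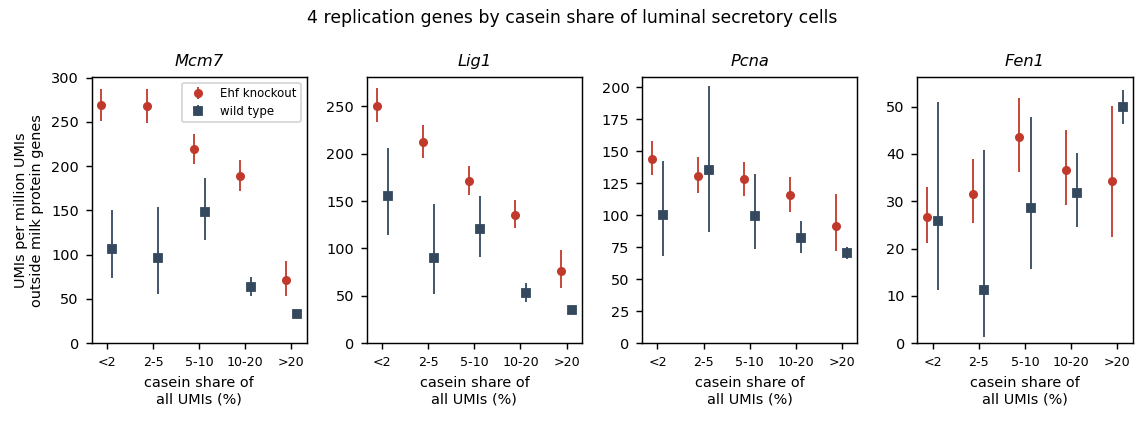
Level of Mcm7, Lig1, Pcna and Fen1 (UMIs per 1000000 UMIs outside milk protein genes) in knockout and wild type luminal secretory cells by casein share, with 95% Poisson intervals. Mcm7 and Lig1 lie higher in knockout cells at each casein share and are lowest above 20%, while Fen1 is highest in wild type cells above 20%, at 49.8.

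Genes that work beside these 45, from lists chosen by textbook role with earlier results of these data known, were described in the same way. Of 33 other replication genes with at least 50 UMIs in luminal secretory cells, 23 were higher in the knockout library and 0 lower, with a median ratio of 1.09; over all genes 31.0% were higher and 10.7% lower. Timeless, which stabilises the fork, had a ratio of 1.90, Wdhd1, which couples helicase and polymerase, 1.85, and Gmnn, the inhibitor of Cdt1, 1.60. The polymerase subunits Pold3 and Pole4 were within 1.5-fold, at -0.28 and -0.27. Of 13 E2F and G1/S regulators 11 were higher, with a median of 1.15: E2f3, an activating E2F, had 1.15 and E2f8, a repressing one, 1.88. The pocket proteins Rb1 and Rbl2 were within 1.5-fold, at 0.21 and -0.26.

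Of 30 other nucleotide synthesis genes 17 were higher and 1 lower, against 31.0% and 10.7% of all genes, with a median of 0.63. Their summed ratio was 0.15; Nme1 and Cmpk1, kinases of nucleotide mono- and diphosphates with many UMIs, were at -0.34 and -0.35. Mthfd2, a mitochondrial enzyme of one-carbon metabolism, had a ratio of 1.82, while Impdh1, of guanine nucleotide synthesis, was at -0.70. All 23 mitosis genes were higher, with a median of 1.34, among them Top2a at 1.62 and Mki67 at 1.09. In basal cells the counts of higher and lower genes were 0 and 1 of 28 other replication genes, 0 and 1 of 12 E2F and G1/S regulators, 7 and 0 of 30 nucleotide synthesis genes and 0 and 3 of 23 mitosis genes, beside 5.69% higher and 7.39% lower over all genes.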

How the data were processed

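Whole-number UMI counts were deposited, with no normalization by the authors. The submitters' processing notes name GRCm38 (mm10) and Seurat 4.0.4; no source used here gives the aligner, counting tool or barcode filter. Of 27179 features, 1314 carry no symbol (1.74% of knockout and 1.36% of wild type UMIs). Totals were 40066795 knockout and 48720938 wild type UMIs.

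Cells with at least 500 genes, 1000 UMIs and at most 20% mitochondrial UMIs were kept. Scrublet (scanpy 1.11.5) removed 125 wild type doublets; it called 0 of 6561 knockout cells, so it did not work there, and 38 cells above the wild type threshold were kept. Cells were scaled to 10000 counts and clustered (2000 variable genes, 30 components, 20 neighbours, Leiden resolution 1, leidenalg 0.10.2) without milk, mitochondrial, ribosomal, replication, E2F, nucleotide synthesis and mitosis genes. Fixed markers named the 18 clusters by median log2 fold over the 25th percentile of clusters (5 CPM added, at least 0.3, at least 3 markers). That percentile was chosen after a first naming left the knockout progenitor-like cluster without a name. Named classes may thus differ from the study's own.

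For each class, UMIs were summed in each library and divided by UMIs outside the 12 milk protein genes. Intervals are exact at 95% (Poisson for levels, conditional binomial for ratios, Clopper-Pearson for shares). A zero was set to 3 counts for a bound. Simulated counts were used to test the computation of levels. Genes with full values were, by rule, the gene with most UMIs per role, the 3 highest and 3 lowest ratios per class, and any gene against the summed direction. The 45 genes, the lists and the rules were chosen with earlier results of these data known. Alternatives covered scaling, weight of cells, gene and cell filters, doublets, clustering, thinning, the minimum per cell and milk bins. Some results of these lists are not reported here.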

Additional observations from a re-analysis of the deposited data

Results flagged for a closer look

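Some ratios of knockout over wild type lay on opposite sides of 0 in different cell classes, with counting intervals that exclude 0; with 1 library per genotype the difference between classes was not tested. The summed ratio was 1.41 in luminal secretory and 0.08 in basal cells, against -0.30 in hormone-sensing cells; the basal ratio was -0.04 with the stricter cell filter and the hormone-sensing ratio -0.12 over all UMIs. Gins4 was at 0.61 in luminal secretory and -0.34 in basal cells, Prim2 at 1.21 and -0.48, and Rpa1 at 0.75 and -0.26. Dnmt1 was at 1.22 in luminal secretory cells, -0.23 in basal cells and -1.26 in hormone-sensing cells. Fen1 was at -0.43 in luminal secretory cells, or 0.12 over all UMIs, and at 0.27 in basal cells.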

How the results depend on the processing

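Of 112 recomputed sums, counts and shares, 64 stayed within their limits, and of 540 recomputed ratios of single genes 458 stayed within the counting interval. Among genes with at least 50 UMIs in a class, none past 1.5-fold turned its direction under the alternatives run; of those with fewer, Prim1 in hormone-sensing cells turned, at 0.76 and at -0.55 with equal weight per cell, as did Rpa2 (-0.65 and 0.60); Fen1 in luminal secretory cells, at -0.43, was 0.12 over all UMIs. The luminal ratio of 1.41 was 1.97 over all UMIs, 1.10 with the median of all genes at 0, 1.35 with equal weight per cell and 0.74 with wild type casein groups weighted as in knockout (added after seeing the data); median scaling gave 1 lower gene. The stricter cell filter gave a basal ratio of -0.0408, with 1 higher and 1 lower gene; without the gene filter 5 basal genes were higher. In hormone-sensing cells the ratio over all UMIs was -0.12 with 1 higher gene. There 6 genes were higher and 18 lower without the gene filter, and 2 lower with equal weight per cell. Without that filter even genes at equal UMIs count as lower through the class totals, such as Mcm4 with 10 UMIs in each library. No share over all genes is given beside these basal and hormone-sensing counts, so nothing is read from them.

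Over all UMIs the casein group ratios were 1.00 at 10 to 20% and 0.61 above 20%. With groups by milk protein share the highest was 0.80 and the lowest 0.59, among groups with at least 50 cells of each library. The group above 35% milk protein, with 22 knockout and 1496 wild type cells, was left out, and its ratio was 0.34 (0.12 to 0.56). In that group 4.55% of knockout cells (1 of 22) and 4.76% of wild type cells were rich. The percent of rich cells in knockout and wild type luminal secretory cells was 10.0 and 1.98 at 1000 UMIs, 43.4 and 12.3 at 3000, 70.4 and 28.9 unthinned, 50 and 16.7 at a minimum of 3, 13.6 and 2.26 at 8, and 22.1 and 4.61 without Pcna, Slbp and Mcm7. In knockout and wild type basal cells these were 1.23 and 1.06, 9.53 and 15.2, 20.1 and 6.70, 17.2 and 18.8, 1.54 and 2.26, and 2.42 and 3.47. In knockout and wild type hormone-sensing cells they were 26.5 and 17.2 unthinned and 9.40 and 11.5 at a minimum of 3, and 0 of 149 knockout cells at a minimum of 8 or at 1000 UMIs, a count that allows a share of up to 2.01% at 149 cells.

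Each genotype was 1 library, so there was no replicate to leave out. No paired analysis was possible because the groups share fewer than 2 replicate numbers. What differs between animals, sorts and captures cannot be told apart from genotype. Depth limits the hormone-sensing class, where 6 of 45 genes reached 50 UMIs, and the casein groups with fewest cells. Cell classes rest on clusters that share cells unequally between libraries, and free RNA was not removed.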
